A study of Sus scrofa with 9 samples.

Results

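The 10 genes described here, ATF4, ASNS, TRIB3, DDIT3, CHAC1, SESN2, FGF21, HSPA5, XBP1 and HERPUD1, answer to amino acid shortage and to stress of the endoplasmic reticulum (ER). They were chosen by name for these roles, with earlier results of these data known. Each stood on 1 row of a liver table of 25918 rows. Liver RNA was sequenced from 9 Wujin pigs, a Chinese plateau breed, with 3 animals per diet. The low-iron pigs received 0 mg/kg of added iron, the control pigs 100 mg/kg and the high-iron pigs 200 mg/kg, the latter 2 diets as iron glycinate. Feeding started at 35 days of age in all groups, with 5 days of pre-feeding and 30 days of formal feeding. Levels are FPKM, fragments per kilobase of transcript scaled to each library's mapped fragments, which allow genes to be compared per length. The values came without counts per gene, so the number of reads behind each value was unknown. Precision was judged from the spread among animals within diets, pooled over the 3 diets and moderated across genes. Each gene thus has 1 SE for all 3 comparisons in the main fit. A wide spread on 1 diet also widens the SE of the comparison between the other diets. Each library is called by its diet and the number in its label, and nothing in the labels says that the same number in 2 diets marks a shared litter or pen.

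When amino acids run short, haem is lacking, virus is present or proteins misfold in the ER, a kinase phosphorylates the translation factor eIF2. General translation then slows while the ATF4 mRNA is translated more, and the ATF4 protein switches on genes of amino acid supply and stress, so the effect is first set on protein rather than on ATF4 mRNA. EIF2AK1 is the kinase that responds to lack of haem, and haem needs iron. ER stress is also read by IRE1, which splices XBP1 mRNA, and by ATF6, and both raise chaperones and the machinery that degrades misfolded proteins. Neither eIF2 phosphorylation, nor ATF4 protein, nor the splice form of XBP1 is resolved by gene-level FPKM.

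No member met the call between diets, which was a fold change of at least 2 with an unadjusted p-value under 0.05 in limma. Of the 10 members, 9 passed the filter of a mean of at least 0.5 FPKM and were tested. In the low-iron group against control 0 of 9 were called, against 0.882% of the 12584 genes tested. The count was also 0 of 9 for high-iron against control, where 1.57% of all genes were called, and for high-iron against low-iron, where 1.54% were called. At an unadjusted p-value under 0.05 alone the members numbered 0, 0 and 1 in these 3 comparisons, and the genes in all 463, 704 and 900. No member had groups without overlap in any comparison, while 8.34% of tested genes did for low-iron against control, 10.9% for high-iron against control and 13.2% for high-iron against low-iron. The high and low values of the members were gathered in a few livers. Their spread within a diet was not compared with that of all genes.

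The 4 most abundant members stood far above the rest. HSPA5 averaged 194 FPKM over the 9 livers, XBP1 103, ATF4 85.2 and HERPUD1 73.0. DDIT3 followed at 5.40 FPKM, TRIB3 at 3.50, SESN2 at 2.81 and ASNS at 1.25. FGF21 ranged from 0 to 3.51 FPKM and CHAC1 from 0 to 0.421. In rank by mean level among all rows, HSPA5 was number 277 and CHAC1 number 16985. Neighbours in this order overlapped in their libraries, except that HSPA5 began at 133 FPKM, just above the 131 of XBP1, and that HERPUD1 (45.9 to 125 FPKM) and DDIT3 (3.88 to 10.8 FPKM) were far apart.

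**Figure D1:**
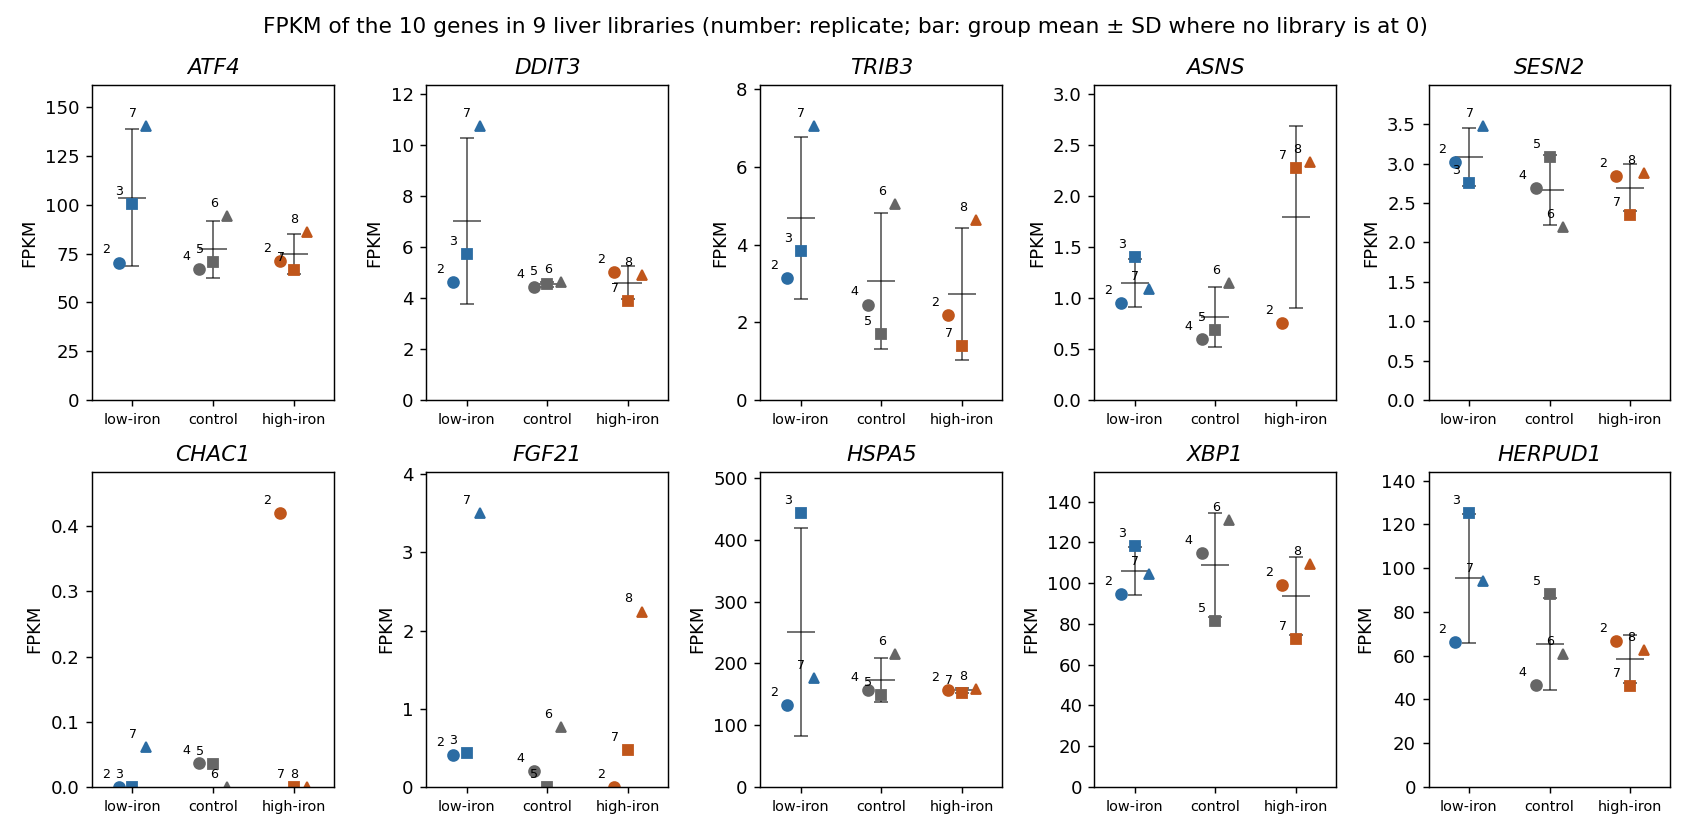
Level of each of the 10 genes in FPKM (vertical axes, linear from 0) in the low-iron, control and high-iron libraries, each point 1 animal with its number and each bar the group mean ± SD (n = 3), drawn only for genes above 0 in every library. The high points are low-iron 7 for ATF4, DDIT3, TRIB3, SESN2 and FGF21 and low-iron 3 for HSPA5 and HERPUD1.

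ATF4, the transcription factor at the centre of the response, lies on chr5:8742964-8745752 on the minus strand of Sscrofa11.1. Its levels were 70.4, 100.3 and 140.2 FPKM in low-iron 2, 3 and 7. They were 67.2, 70.7 and 94.0 FPKM in control 4, 5 and 6, and 71.1, 66.5 and 86.1 FPKM in high-iron 2, 7 and 8. The top 2 values of the 9 were both low-iron, but low-iron 2 lay among the controls, so the groups overlapped. The group means were 104 ± 35.04 FPKM in low-iron, 77.3 ± 14.6 in control and 74.6 ± 10.3 in high-iron (SD, n = 3). On the log2(FPKM + 0.1) scale low-iron exceeded control by 0.38 (SE 0.26; 95% confidence interval -0.18 to 0.95; limma, Benjamini-Hochberg adjusted p = 0.9998), and by 0.14 without low-iron 7. High-iron differed from control by -0.04 (SE 0.26) and from low-iron by -0.43 (SE 0.26).

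DDIT3 encodes CHOP, a transcription factor induced by ATF4 that promotes cell death under lasting ER stress, and lies on chr5:22785441-22789867, minus strand. Its levels in low-iron 2, 3 and 7 were 4.62, 5.72 and 10.8 FPKM. The controls 4, 5 and 6 were nearly equal at 4.43, 4.56 and 4.64 FPKM, and high-iron 2, 7 and 8 had 5.04, 3.88 and 4.91 FPKM. Low-iron 7 thus stood alone, while the other 8 livers lay between 3.88 and 5.72 FPKM. The difference of low-iron from control was 0.53 in log2 (SE 0.28; 95% confidence interval -0.10 to 1.15; limma, adjusted p = 0.9998), and without low-iron 7 it was 0.18. High-iron and control differed by 0.01 (SE 0.28).

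TRIB3, a pseudokinase that ATF4 and CHOP induce and that in turn restrains ATF4, lies on chr17:34808273-34819592, minus strand. It had 3.15, 3.84 and 7.05 FPKM in low-iron 2, 3 and 7. The controls 4, 5 and 6 had 2.46, 1.71 and 5.04 FPKM, and high-iron 2, 7 and 8 had 2.18, 1.39 and 4.65 FPKM. Each diet thus held 1 liver well above the other 2, namely low-iron 7, control 6 and high-iron 8. The log2 difference was 0.65 for low-iron against control, -0.19 for high-iron against control and -0.84 for high-iron against low-iron (SE 0.49 each; limma, adjusted p = 0.9998, 0.994 and 0.774). The first was 0.31 without low-iron 7 or without control 5 and 1.06 without control 6. Without high-iron 8 the difference of high-iron from low-iron was -1.29 and met the call.

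ASNS, asparagine synthetase, which makes asparagine from aspartate and glutamine, lies on chr9:77318341-77336290, minus strand, and was alone among the tested members in being higher in high-iron than in low-iron. It had 0.950, 1.41 and 1.09 FPKM in low-iron 2, 3 and 7. In control 4, 5 and 6 it had 0.600, 0.692 and 1.15 FPKM, and high-iron 2, 7 and 8 had 0.761, 2.28 and 2.34 FPKM. High-iron 7 and 8 were the top of all 9 livers, but high-iron 2 lay below control 6, so the groups overlapped. High-iron exceeded control by 0.95 in log2 (SE 0.44; 95% confidence interval -0.02 to 1.91; limma, adjusted p = 0.894), and low-iron exceeded control by 0.48 (SE 0.44). Without high-iron 2 the difference of high-iron from control was 1.44, and without control 6 it was 1.20, both past the call. It also met the call at 1.02 with FPKM rescaled to a common sum and at 1.28 with libraries weighted by their spread. Other alternatives lowered it, to 0.69 without high-iron 8, 0.71 without high-iron 7 and 0.58 with a pseudocount of 1.

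SESN2, sestrin 2, a leucine-binding inhibitor of the growth kinase complex mTORC1 and a target of ATF4, lies on chr6:85321982-85348044, plus strand. It had 3.02, 2.75 and 3.48 FPKM in low-iron 2, 3 and 7. The controls 4, 5 and 6 had 2.69, 3.09 and 2.20 FPKM, and high-iron 2, 7 and 8 had 2.85, 2.35 and 2.88 FPKM. It varied least of the members above 0 in every liver, 1.58 times between lowest and highest. Low-iron exceeded control by 0.21 in log2 (SE 0.21; 95% confidence interval -0.26 to 0.68), and high-iron exceeded control by 0.02 (SE 0.21).

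CHAC1, an enzyme that breaks down glutathione and an ATF4 and CHOP target, lies on chr1:130360510-130363332, minus strand, and was barely present. It was listed at 0 in low-iron 2 and 3, control 6 and high-iron 7 and 8. The other 4 livers had 0.0616 FPKM in low-iron 7, 0.0363 and 0.0358 in control 4 and 5, and 0.421 in high-iron 2. Its mean lay below the filter, and it was not tested in limma.

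FGF21, a liver hormone of fasting and amino acid shortage, lies on chr6:54082653-54084532, plus strand. It had 0.405, 0.428 and 3.51 FPKM in low-iron 2, 3 and 7. It had 0.202 and 0.764 FPKM in control 4 and 6 and was listed at 0 in control 5, and it had 0.476 and 2.24 FPKM in high-iron 7 and 8 and was listed at 0 in high-iron 2. Low-iron 7 and high-iron 8 were thus above the other 7 livers, and all groups overlapped. On the log2(FPKM + 0.1) scale low-iron exceeded control by 1.73, but with an SE of 1.21 and a 95% confidence interval from -0.94 to 4.41 (limma, adjusted p = 0.9998). It was 0.80 without low-iron 7 and 0.95 without control 5, and 0.70 with a pseudocount of 1 and 2.87 with one of 0.01. The difference of high-iron from control was 0.79 (SE 1.21), and without high-iron 8 it was -0.31.

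HSPA5 encodes BiP, the main ER chaperone, which also holds the ER stress sensors inactive, and lies on chr1:265930044-265934959, minus strand. It had 133, 444 and 177 FPKM in low-iron 2, 3 and 7. Control 4, 5 and 6 had 157, 149 and 215 FPKM, and high-iron 2, 7 and 8 had 157, 153 and 159 FPKM. Low-iron 3 stood far above the rest, low-iron 2 was the lowest of all 9, and the high-iron livers were nearly equal (156 ± 3.45 FPKM, SD, n = 3). Low-iron exceeded control by 0.35 in log2 (SE 0.37; 95% confidence interval -0.47 to 1.17; limma, adjusted p = 0.9998), and without low-iron 3 the sign turned, to -0.16. High-iron differed from low-iron by -0.48 (SE 0.37), and by 0.03 without low-iron 3.

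XBP1, the transcription factor made active by IRE1 splicing, lies on chr14:46011239-46016526, minus strand. It had 94.8, 118 and 104 FPKM in low-iron 2, 3 and 7. Levels in control 4, 5 and 6 were 115, 81.2 and 131 FPKM, and high-iron 2, 7 and 8 had 99.0, 72.3 and 109 FPKM. The highest liver was control 6 and the lowest high-iron 7. The difference of low-iron from control was -0.02 in log2 (SE 0.23; 95% confidence interval -0.53 to 0.49), and that of high-iron from control was -0.21 (SE 0.23).

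HERPUD1, an ER membrane protein of ER-associated degradation, lies on chr6:18901171-18913427, plus strand, and had the smallest p-value of the members. It had 66.4, 125 and 94.2 FPKM in low-iron 2, 3 and 7. The controls 4, 5 and 6 had 46.7, 88.0 and 60.7 FPKM, and high-iron 2, 7 and 8 had 66.8, 45.9 and 62.7 FPKM. Low-iron 3 and 7 were the top 2 of the 9 livers, while low-iron 2 lay just below high-iron 2. High-iron differed from low-iron by -0.67 in log2 (SE 0.29; 95% confidence interval -1.32 to -0.03), with an unadjusted limma p-value under 0.05 and a Benjamini-Hochberg adjusted p = 0.689. Low-iron exceeded control by 0.55 (SE 0.29; limma, adjusted p = 0.9998), or by 0.33 without low-iron 3 and 0.34 without control 4, and high-iron differed from control by -0.12 (SE 0.29).

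**Figure D2:**
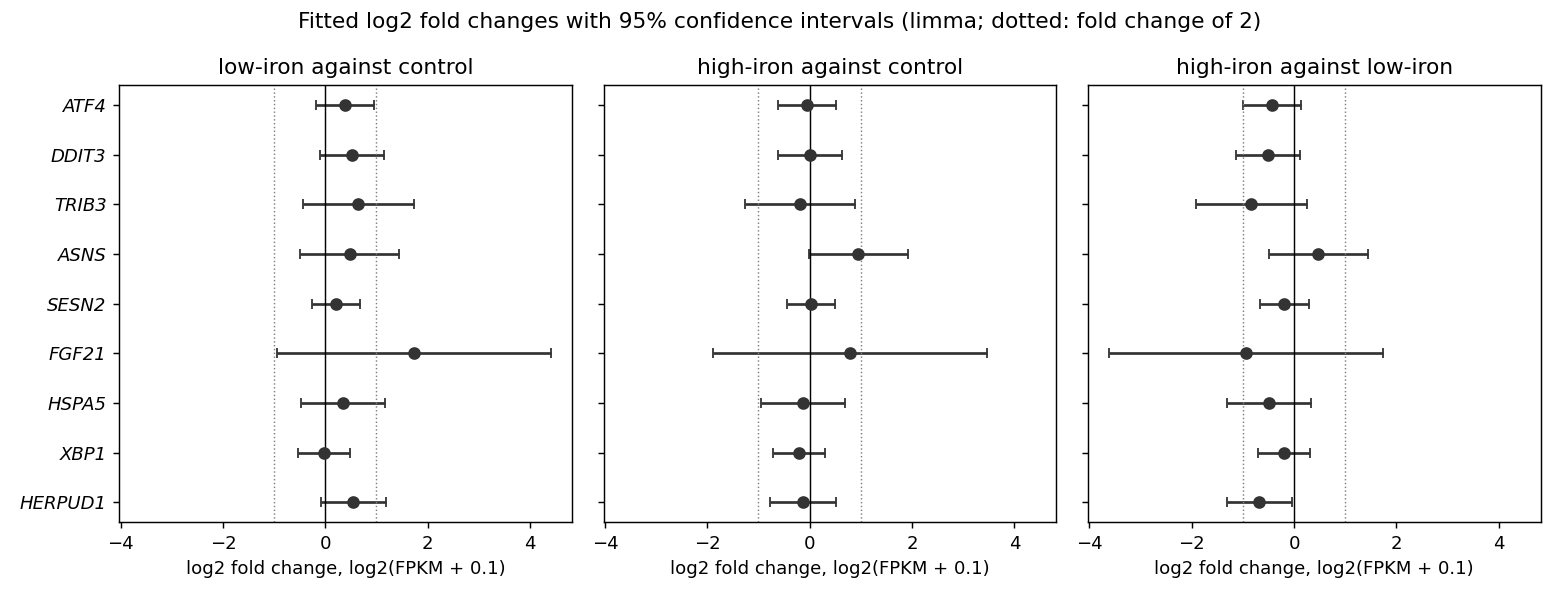
Fitted log2 fold change (horizontal axis, log2(FPKM + 0.1) scale) of the 9 tested genes with 95% confidence intervals from limma, 1 panel per comparison, with dotted lines at a fold change of 2. All intervals cross 0 except that of HERPUD1 for high-iron against low-iron, -1.32 to -0.03.

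The signs of the member differences were uneven, and were counted without a test. Between low-iron and control 8 of 9 members were higher in low-iron, with a median log2 difference of 0.48, while 62.7% of all tested genes were higher there with a median of 0.08. Between high-iron and low-iron 8 of 9 were lower in high-iron, with a median of -0.48 against 0.03 over all genes. Between high-iron and control 4 were higher and 5 lower, with a median of -0.04 against 0.10 over all genes. The 3 comparisons share libraries, so the first 2 counts were not separate evidence. Median-of-ratios scaling moved the median of all genes for high-iron against control from 0.10 to -0.03, and DDIT3 and SESN2 then changed sign in that comparison, to -0.11 and -0.10. Over all 3 diets, an exact permutation test of each gene's F statistic over 1680 assignments gave unadjusted p-values from 0.157 for DDIT3 to 1 for CHAC1. Between any 2 diets the exact permutation p-value of a member was 0.2 or more, where 0.1 is the smallest that 3 against 3 allows.

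The spread was gathered in a few livers. Low-iron 7 was the highest of the 9 for 5 of the 9 tested members, ATF4, DDIT3, TRIB3, SESN2 and FGF21, while it was the highest for 17.0% of all tested genes. Low-iron 3 was the highest for HSPA5 and HERPUD1, and for 13.4% of all genes. High-iron 7 was the lowest for 5 members, ATF4, DDIT3, TRIB3, XBP1 and HERPUD1, and for 5.21% of all genes, although it was near the top for ASNS. In HSPA5 low-iron 7 was ordinary, with a z-score of -0.05, and in DDIT3 low-iron 3 was 0.35, so the 2 livers stood apart in these genes. In other members they were the top 2 together, with z-scores in low-iron 3 and 7 of 0.77 and 2.12 for ATF4 and 1.80 and 0.93 for HERPUD1.

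**Figure D3:**
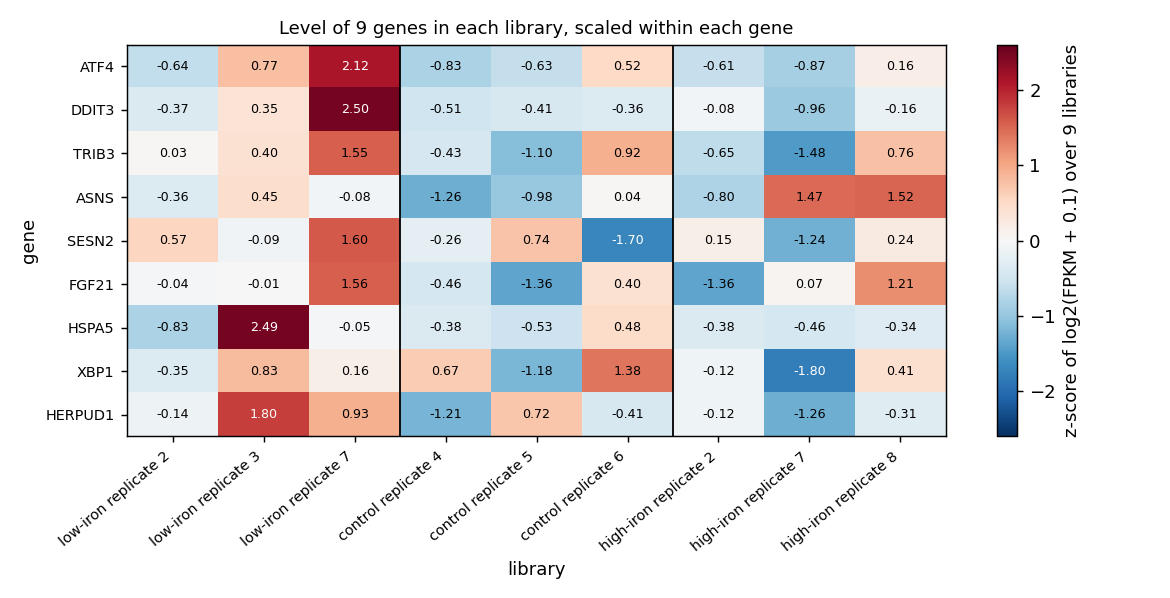
Level of the 9 tested genes in each library as a z-score of log2(FPKM + 0.1) over the 9 libraries (colour, with the value printed), with lines between the low-iron, control and high-iron libraries. The highest values are 2.496 for DDIT3 and 2.12 for ATF4 in low-iron 7 and 2.49 for HSPA5 in low-iron 3, and the lowest is -1.80 for XBP1 in high-iron 7.

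As a description over 9 livers, ATF4 went along most closely with DDIT3 (Pearson r = 0.89, and 0.70 to 0.95 with each library left out in turn) and TRIB3 (r = 0.86, and 0.81 to 0.89). TRIB3 and FGF21 had r = 0.77 (0.66 to 0.95). HSPA5 and HERPUD1 had r = 0.64, which fell to 0.05 without low-iron 3. ASNS went along most with FGF21 (r = 0.61, and 0.47 to 0.77), and had r = 0.19 to ATF4 (0.06 to 0.47), 0.15 to TRIB3 (-0.01 to 0.66) and -0.30 to SESN2 (-0.43 to -0.06). These values share diets and libraries.

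Sequences before the annotated gene starts and inside XBP1 are shown because they match known elements of ATF4, CHOP, ATF6 and IRE1. A match does not show that a factor acts there, nor does a missing match in this window show that none acts. Binding was not tested. They were read from the RefSeq assembly Sscrofa11.1, and both strands of the 500 bases before each annotated start were searched in 20662 protein-coding genes. The C/EBP-ATF response element, TGATGNAAN, was found in 5.97% of these windows and in 3 of the 10 members. In all 3 it lay on the strand opposite to the gene. Its match read TGATGCAAT in DDIT3 and FGF21 and TGATGCAAC in CHAC1. The windows below run 5′ to 3′ on the gene's strand, with the matched bases in capitals, and lie at chr5:22790105-22790153 (minus strand), chr6:54082441-54082489 (plus strand) and chr1:130363470-130363518 (minus strand). The first capital is 266 bases before the start of DDIT3, 192 before that of FGF21 and 166 before that of CHAC1.
DDIT3: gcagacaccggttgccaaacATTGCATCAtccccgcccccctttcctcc
FGF21: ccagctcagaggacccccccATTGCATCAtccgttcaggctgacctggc
CHAC1: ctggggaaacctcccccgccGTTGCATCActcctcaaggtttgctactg

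The ER stress response element, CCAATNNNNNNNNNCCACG, stood in 0.0726% of the windows and in 1 member, XBP1. It began 82 bases before the start, at chr14:46016570-46016628 with its flanks (minus strand), and is in capitals below. The second form of this element, ATTGGNCCACG, was in 0.102% of the windows and the unfolded protein response element, TGACGTGG, in 0.832%, and no member held either in this window. The piece of XBP1 mRNA that IRE1 removes was found by its paired cutting motifs at chr14:46012746-46012801 (minus strand, with flanks). It measures 26 bases, shown in capitals, and the frame shifts when it is removed. FPKM of XBP1 counts spliced and unspliced mRNA together.
XBP1 upstream: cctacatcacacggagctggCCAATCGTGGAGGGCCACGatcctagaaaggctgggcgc
XBP1 intron: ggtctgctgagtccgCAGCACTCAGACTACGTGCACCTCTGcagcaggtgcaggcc

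Upstream of the members, the 4 eIF2 kinases did not meet the call. EIF2AK1, the kinase regulated by haem, had 5.53, 4.69 and 6.97 FPKM in low-iron 2, 3 and 7. It had 4.99, 4.80 and 5.25 FPKM in control 4, 5 and 6 and 3.87, 5.09 and 6.16 FPKM in high-iron 2, 7 and 8. The groups overlapped, with low-iron 7 highest, and low-iron differed from control by 0.17 in log2. EIF2AK2, the kinase that senses viral RNA, and EIF2AK3, the ER kinase PERK, were highest in low-iron 3 at 7.71 and 5.001 FPKM, and EIF2AK4, the kinase of amino acid shortage, in control 4 at 5.63 FPKM. Of the whole list, low-iron 7 was the highest liver for 3 of 17 genes, 17.6% against 17.0% of all genes, and low-iron 3 for 8 of 17, 47.1% against 13.4%. Of the 17 tested genes of eIF2, its kinases, its exchange factor and its phosphatase, 10 were higher in low-iron than in control and 0 were called in any comparison by limma. The smallest p-value for high-iron against control was that of EIF2AK2, at 0.44 (SE 0.30). In this list 1 gene had an unadjusted p-value under 0.05 for low-iron against control, 0 for high-iron against control and 1 for high-iron against low-iron. In both cases it was EIF2S1, the phosphorylated subunit of eIF2. It had 11.3, 11.9 and 10.8 FPKM in low-iron 2, 3 and 7, above the 8.11, 8.14 and 9.05 FPKM of control 4, 5 and 6. Low-iron exceeded control by 0.42 in log2 (SE 0.15; limma, Benjamini-Hochberg adjusted p = 0.9998), and high-iron, with 8.45, 8.19 and 8.002 FPKM in animals 2, 7 and 8, differed from low-iron by -0.46 (SE 0.15; adjusted p = 0.616).

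Other genes known as ATF4 targets were listed apart from the members, and 34 passed the filter. In low-iron against control 27 were higher and 7 lower, with a median log2 difference of 0.27 against 0.08 over all genes. Of all tested genes 62.7% were higher and 0.882% were called in this comparison. Of the 34 targets 3 were called. These were ATF3, a stress transcription factor, at 1.10, and the transporters SLC38A2, for small neutral amino acids, at -1.06 and SLC7A11, the cystine exchanger, at -1.39 (limma, adjusted p = 0.9998 each). SLC38A2 had 29.8, 49.8 and 39.2 FPKM in low-iron 2, 3 and 7 and 73.8, 124 and 57.9 FPKM in control 4, 5 and 6, so the groups did not overlap. The other tested amino acid transporters of the list had positive differences, none of them called, with SLC1A4 at 0.32, SLC1A5 at 0.31 and SLC3A2, the partner of SLC7A11, at 0.10. Without low-iron 7 the count higher was 24, the median was 0.09 and neither ATF3 nor SLC7A11 was called. With a pseudocount of 1 both were lost too, at 0.83 and -0.73, and SLC7A11 was also lost in a fit of the 2 groups only. When other libraries were left out, without low-iron 2 or control 5 neither SLC38A2 nor SLC7A11 was called, and without control 4 SLC38A2 alone was.

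In high-iron against low-iron 26 of the 34 ATF4 targets were lower, with a median of -0.28 against 0.03. Of all tested genes 53.6% were higher and 1.54% called there. Of the targets 2 were called. GDF15, a stress hormone, differed by -1.94 (SE 0.71; limma, adjusted p = 0.643) and ATF3 by -1.17 (SE 0.41; adjusted p = 0.640). GDF15 had 0.641, 0.409 and 1.98 FPKM in low-iron 2, 3 and 7 and 0.403 and 0.176 FPKM in high-iron 7 and 8, with high-iron 2 listed at 0. Its highest liver was low-iron 7, where ATF3 also peaked at 6.91 FPKM, and without that library neither gene was called. GDF15 was also lost without high-iron 2 and ATF3 without high-iron 7, and with a pseudocount of 1 both were lost, at -0.69 and -0.90. The mean of GDF15 over the 9 livers, 0.547 FPKM, passed the filter of 0.5 only through the low-iron group where it was high, so its difference is a description, and it was not tested with a filter of 1 FPKM. Low-iron 7 was the highest liver for 10 of the 34 targets, 29.4%, against 17.0% of all genes. In high-iron against control 15 were higher and 19 lower, and 1 was called, VLDLR, a lipoprotein receptor, at 1.02 (SE 0.32; limma, adjusted p = 0.885). Without control 5 the difference of VLDLR was 0.61, and the call was also lost without high-iron 2 or 8. It was lost as well with a pseudocount of 1 (0.80), median-of-ratios scaling (0.89), quantile normalization (0.88) and array quality weights (0.89).

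The cytosolic aminoacyl-tRNA synthetases, which load tRNAs with amino acids and some of which ATF4 also raises, differed little but mostly in 1 direction. Of 20 tested, 18 were higher in low-iron than in control, against 62.7% of all tested genes. The median log2 difference was 0.18 against 0.08 over all genes, with 3 at an unadjusted limma p-value under 0.05 and 0 called. NARS, for asparagine, had the smallest p-value. It had 34.4, 42.1 and 40.3 FPKM in low-iron 2, 3 and 7 and 27.2, 25.8 and 29.1 FPKM in control 4, 5 and 6, without overlap, a log2 difference of 0.50 (SE 0.16; limma, adjusted p = 0.9998). In high-iron against low-iron 18 of 20 were lower. In that comparison 53.6% of all tested genes were higher and 1.54% called. FARSB, a subunit of the phenylalanine enzyme, was called at -1.03 (SE 0.23; limma, adjusted p = 0.521). The call was lost without low-iron 7 or high-iron 2, with a pseudocount of 1 (-0.93), with TPM or with array quality weights (-0.89). FARSB also had the smallest p-value for high-iron against control, at -0.52 (SE 0.23; limma, adjusted p = 0.892). In high-iron against control 12 were higher as deposited and 2 with median-of-ratios scaling.

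Around HSPA5, a list of ER chaperones and folding enzymes was high in certain livers, and no difference between diets met the call. The list also held SEC61B, SPCS1, SSR1, SRPRB, SEC24D and SEC31A, which serve the entry of proteins into the ER or their exit. Of 29 tested, 13 were higher in low-iron than in control and 16 lower, 17 were higher in high-iron than in control, and 0 were called in any comparison by limma, with 0, 0 and 1 at an unadjusted p-value under 0.05 for low-iron against control, high-iron against control and high-iron against low-iron. Low-iron 3 was the highest liver for 15 of the 29, 51.7%, against 13.4% of all genes, and control 6 for 10, against 7.38%. The smallest p-values were those of TXNDC11, a thioredoxin-like ER protein, at 0.28 (SE 0.19) for low-iron against control and -0.49 (SE 0.19) for high-iron against low-iron, and of ERO1B, an ER oxidase, at 0.82 (SE 0.43) for high-iron against control. HYOU1, a chaperone that works with BiP, had 77.4 FPKM in low-iron 3 and 18.8 to 31.6 in the other 8 livers. HSP90B1, the ER member of the HSP90 family, had 304 FPKM in control 6 and 294 in low-iron 3, and 120 to 234 in the others. Both were picked after their values were seen, and SEC31A of the same list was lowest in low-iron 3, at 23.9 FPKM. Without low-iron 3 the count higher in low-iron than in control was 6 of 29, and without control 6 it was 25 of 29.

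In ER-associated degradation, the process of HERPUD1, 14 of 23 tested genes were higher in low-iron than in control and 18 were lower in high-iron than in low-iron, and limma called 0 in each comparison, with 0, 0 and 1 at an unadjusted p-value under 0.05 in the order above. Low-iron 3 was the highest liver for 9 of them. The smallest p-values were those of NPLOC4 at 0.31 for low-iron against control, FAM129A at 0.55 for high-iron against control and SELENOS at -0.65 for high-iron against low-iron. FAM129A and CRELD1 were on this list but are not established parts of the process. Among the ER stress sensors and their transcription factors 7 of 14 were higher in low-iron than in control, and 0 were called by limma in any comparison, again with 0, 0 and 1 at an unadjusted p-value under 0.05. RTCB, the ligase that joins XBP1 mRNA after IRE1 cuts it, had the smallest p-value for low-iron against control, at 0.41, and for high-iron against low-iron, at -0.46, and CREB3, an ER-bound transcription factor, for high-iron against control, at 0.41. ATF6, picked after its values were seen, had 25.8 FPKM in low-iron 3 and 12.9 to 17.2 in the other livers. Low-iron 3 was the highest liver for 4 of these 14 genes, and ATF6B was highest in high-iron 7, at 10.5 FPKM.

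**Figure D4:**
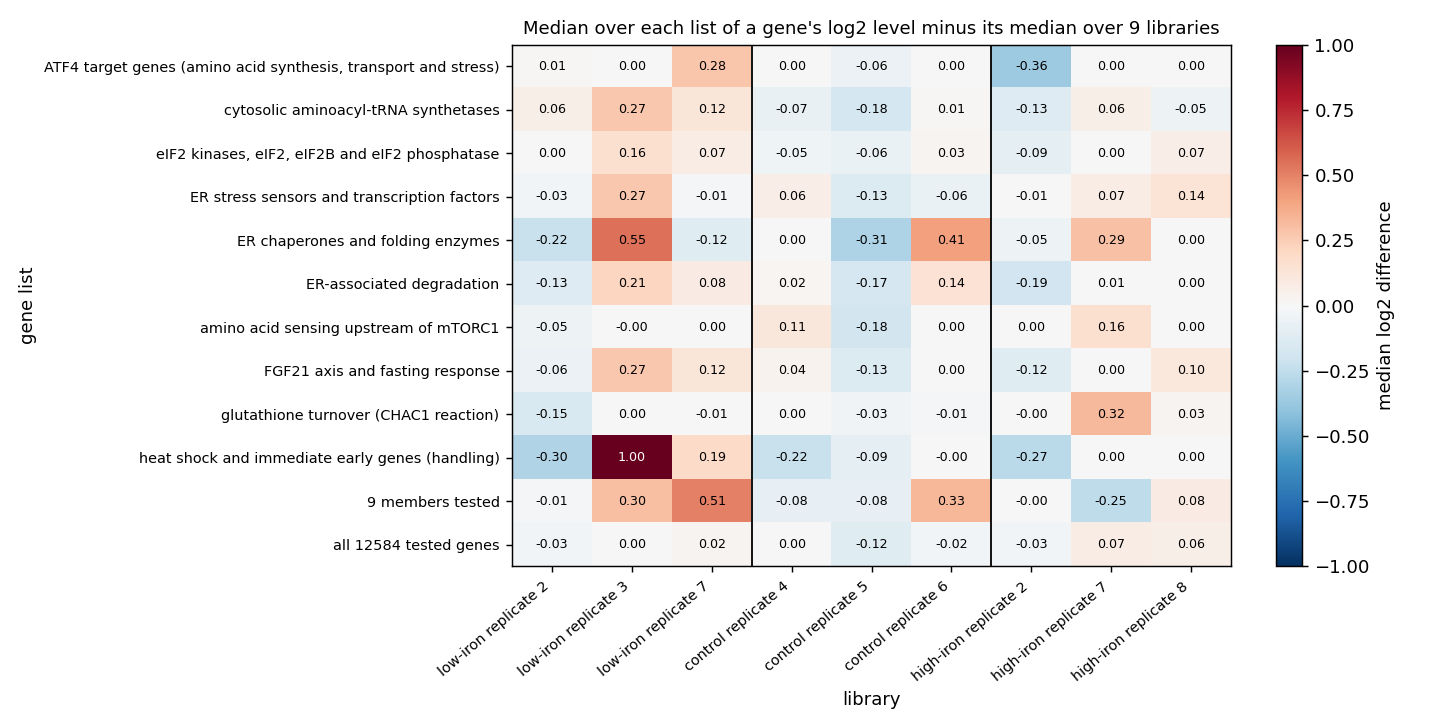
For each gene list (rows) and library (columns), the median over the list's tested genes of the log2(FPKM + 0.1) level minus the gene's own median over the 9 libraries, printed and coloured. Low-iron 3 stands at 0.55 for ER chaperones and 1.00 for heat shock and immediate early genes, low-iron 7 at 0.51 for the members and 0.28 for other ATF4 targets, and all genes lie between -0.12 and 0.07.

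Heat shock and immediate early genes, which can change with handling and the time to sampling, were high in the same liver as HSPA5. Low-iron 3 was the highest for 9 of the 15 tested, with a median of 1.00 in log2 above each gene's median. In low-iron against control 12 of 15 were higher, and ATF3 and EGR1, an immediate early gene, were called. Of all tested genes 62.7% were higher and 0.882% called there. ATF3 is the same call as among the ATF4 targets. EGR1 differed by 1.79 (SE 0.73; limma, adjusted p = 0.9998). Without low-iron 3, 9 of 15 were higher and EGR1 was not called. It was also lost without low-iron 2, control 4 or control 6, in a fit of the 2 groups only and with quantile normalization. In high-iron against control the smallest p-value of the list was that of IER3, at 0.98 (SE 0.53), which was not called. Their part in the level of HSPA5 was not tested.

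Markers of liver cell types were present throughout, with ALB, albumin, at a mean of 56911 FPKM, and no marker list was at 0. The most abundant marker of each other list was CD5L for macrophages, CCL5 for T and NK cells, JCHAIN for B and plasma cells, CLEC4G for endothelial cells, SPP1 for bile duct cells, COL3A1 for stellate cells and fibroblasts, CSF3R for neutrophils and HBB for erythroid cells. Summed FPKM of hepatocyte markers was 71233 to 80801 in low-iron, 74381 to 93676 in control and 69753 to 83950 in high-iron, and 0 of 10 were called in any comparison. Erythroid markers summed to 476 to 2446 in low-iron, 211 to 1445 in control and 351 to 839 in high-iron. Only 2 of 5 passed the filter. The highest sum was in low-iron 7, the liver where ATF4, DDIT3 and TRIB3 peaked. The next were 1445 in control 6 and 1425 in low-iron 2. There ATF4 had 94.0 and 70.4 FPKM, DDIT3 4.64 and 4.62 FPKM and TRIB3 5.04 and 3.15 FPKM. T and NK cell markers summed to 34.9 to 42.0 in low-iron, 34.5 to 50.7 in control and 49.0 to 85.8 in high-iron, where 10 of 10 were higher than in control and 1 was called. Stellate cell and fibroblast markers summed to 129 to 324, 125 to 211 and 217 to 325 on the 3 diets in rising order of iron, with 8 of 8 higher and 2 called in high-iron against control. The 324 was low-iron 3, the liver where HSPA5, HERPUD1 and many chaperones peaked, against 129 and 143 in low-iron 2 and 7. High-iron 2 and 8 had sums of 325 and 299, with HSPA5 at 157 and 159 FPKM and HERPUD1 at 66.8 and 62.7 FPKM. Bile duct markers also summed to 35.2 in low-iron 3, against 13.2 and 17.3 in low-iron 2 and 7, 11.4 to 32.2 in control and 27.4 to 42.3 in high-iron. Neutrophil markers summed to 6.63 to 9.16 in low-iron, 3.48 to 5.79 in control and 4.44 to 12.03 in high-iron. The sums of low-iron and control did not overlap, and 1 of 4 tested was called there. In that comparison 0.882% of all tested genes were called and 8.34% did not overlap. Macrophage markers summed to 1175 to 1341, 1038 to 1336 and 1306 to 1593 in the 3 groups and endothelial markers to 209 to 278, 205 to 238 and 254 to 294. In high-iron against control 7 of 8 endothelial markers were higher and 1 was called. In high-iron against low-iron the called markers were 1 of 10 for T and NK cells and 1 of 9 for B and plasma cells. Bile duct cells had 1 of 5 called and stellate cells and fibroblasts 2 of 8, against 1.54% of all tested genes. ASNS was high in high-iron 7 and 8, whose T and NK sums were 49.0 and 85.8, and low in high-iron 2, whose sum was 59.2. In the low-iron and control livers ASNS was 0.600 to 1.41 FPKM and these sums were 34.5 to 50.7. A relation between them was not tested. B and plasma cell markers, cells rich in XBP1 and ER chaperones, summed to 11.6 in low-iron 3 and 21.2 in control 6, within 11.6 to 38.3 over all livers. The part of cell makeup in the levels was not tested, and in whole liver fewer cells of a type and less RNA per cell cannot be told apart.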

How the data were processed

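Liver poly(A) RNA of 3 pigs per diet was sequenced. Trimmed reads were mapped by the authors to Sscrofa11.1 (HISAT2), transcripts were built in StringTie, and 1 table of FPKM per gene and library was deposited. Its 20660 numbered genes carry no symbols and were matched by order to the gene lines of the NCBI annotation. With this match 20660 were protein-coding, and 15031 with a shift of 1 line. The 5258 new genes were tested without a name.

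The scale was log2(FPKM + 0.1), and 12584 genes at or above a mean FPKM of 0.5 entered 1 fit of the 3 groups with limma 3.58.1 (R 4.3.3) and trended empirical Bayes moderation. Calls used the fold change of 2 and unadjusted p = 0.05 of the study, and Benjamini-Hochberg adjustment ran over all tested genes. Permutation tests were exact and two-sided. The fit was tested on simulated data.

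Members and lists were chosen with earlier results of these data known. Named were all members, of each list and comparison the called genes or else that with the smallest p-value, the top gene of each marker list, and the 3 genes most like each of 2 member scores. Genes given for their role (the kinases, the other amino acid transporters, HYOU1, HSP90B1, ATF6) were added after their values were seen. Samples were 3 separate animals per group.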

Additional observations from a re-analysis of the deposited data

How the results depend on the processing

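Of 510 member differences under 19 alternatives, 28 changed sign, none of them called under either setting, and 5 met the call that the main analysis did not give. The number of members called in high-iron against control was 1 with FPKM rescaled to TPM and 1 with array quality weights, in both cases ASNS, and 0 to 1 with each library left out. In high-iron against low-iron it was 0 to 1 with each library left out (TRIB3 without high-iron 8). In high-iron against control, array quality weights gave 0.067 for ATF4, 0.081 for TRIB3 and 0.054 for HERPUD1. Median-of-ratios scaling gave -0.11 for DDIT3 and -0.10 for SESN2, and quantile normalization -0.12 and -0.14. Leaving out each library in turn gave, for the same comparison, -0.15 to 0.10 for ATF4, -0.64 to 0.23 for TRIB3, -0.056 to 0.13 for DDIT3, -0.10 to 0.13 for SESN2, -0.31 to 1.97 for FGF21, -0.23 to 0.032 for HSPA5 and -0.34 to 0.12 for HERPUD1. For high-iron against low-iron it gave -2.04 to 0.23 for FGF21 and -0.84 to 0.026 for HSPA5, and for low-iron against control -0.16 to 0.71 for HSPA5 and -0.22 to 0.13 for XBP1. The cause was not tested.

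Low-iron and high-iron share animal numbers 2 and 7, but the deviations of same-numbered libraries correlated at 0.02 and 0.02, so the numbers were not taken as pairs. The consensus correlation that the replicate block used was 0.20. With the replicate block the members called stayed at 0 in each comparison, and DDIT3 in high-iron against control was -0.00228. With 3 livers per group and no counts, the 95% interval for low-iron against control ran up to 0.95 for ATF4, 1.15 for DDIT3 and 4.41 for FGF21 in log2, so differences up to these sizes were not excluded.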

Other observations

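Of the 11115 tested and named genes outside the members, 3 followed most closely the mean z-score of TRIB3, DDIT3, SESN2 and ASNS over the 9 livers. They were ADAMTS13, the protease that cuts von Willebrand factor (Pearson r = 0.97), NPLOC4, a cofactor of ER-associated degradation (r = 0.95), and ZDHHC7, a palmitoyltransferase (r = 0.94). All 3 were highest in low-iron 7, where ADAMTS13 had 2.57 FPKM, NPLOC4 16.2 FPKM and ZDHHC7 16.8 FPKM. The mean z-score of HSPA5, XBP1 and HERPUD1 was followed by CLDN4, a tight junction protein (r = 0.96), and by SRPRB (r = 0.95) and SRP72 (r = 0.93), a receptor subunit and a protein of the signal recognition particle pathway that brings new proteins to the ER. All 3 were highest in low-iron 3, at 137, 33.6 and 32.8 FPKM. These are the highest values among many genes over few livers and carry no test.

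Of 27 tested genes of amino acid sensing upstream of mTORC1, the pathway of SESN2, 1 was called, in high-iron against low-iron. Of all tested genes 1.54% were called there. SESN3, a relative of SESN2, was 1.01 higher in log2 in high-iron than in low-iron (SE 0.27; limma, Benjamini-Hochberg adjusted p = 0.573), with 3.41, 2.22 and 2.96 FPKM in high-iron 2, 7 and 8 and 1.52, 1.29 and 1.27 FPKM in low-iron 2, 3 and 7. SESN2 itself differed by -0.19 in this comparison. For high-iron against control SESN3 had the smallest p-value at 0.81 (SE 0.27), and for low-iron against control RHEB, the activator of mTORC1, at 0.40 (SE 0.19). The call for SESN3 was lost under 9 alternatives, with values from 0.70 to 1.00. Of 20 tested genes of the FGF21 axis and fasting, PDK4, which holds back glucose oxidation, was -1.13 in low-iron against control (SE 0.45; limma, adjusted p = 0.9998) and 1.09 in high-iron against low-iron (SE 0.45; adjusted p = 0.678). Each call was lost without low-iron 2 or 3, the first also without control 4 or 5 and the second without high-iron 7 or 8. Of all tested genes 0.882% and 1.54% were called in these comparisons. TAT, which breaks down tyrosine, had the smallest p-value for high-iron against control, at -0.91 (SE 0.37; adjusted p = 0.892). Of 12 tested genes of glutathione turnover, the reaction of CHAC1, SLC7A11, in low-iron against control, was the only one called in the 3 comparisons. It is the same call as among the ATF4 targets, and 0.882% of all tested genes were called there. GGT1 had the smallest p-value for high-iron against control, at 0.78 (SE 0.28), and GCLC for high-iron against low-iron, at 0.55 (SE 0.22).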
